A study of Mus musculus with 9 samples.

Results

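Type I interferon signalling was followed through 9 of its genes in mouse macrophages that had received lipopolysaccharide (LPS), the outer-membrane glycolipid of Gram-negative bacteria. The 9 genes are the receptor chains Ifnar1 and Ifnar2, the signal transducer Stat2, and the interferon regulatory factors Irf1, Irf3, Irf5, Irf7, Irf8 and Irf9. They were taken by Ensembl identifier from a table of 22165 genes, each matched 1 row, and all 9 passed the filter on low counts. The cells were bone marrow-derived macrophages, grown in culture from the marrow of C57BL/6N mice aged 6 to 16 weeks. Every group received LPS at 100 ng/mL for 24 h, so no unstimulated cells are compared here. The 3 groups, each of 3 libraries, were Irg1-/- cells with 1 mM itaconate added 4 h after LPS (KO + itaconate), Irg1-/- cells with LPS alone (KO), and wildtype cells with LPS alone (WT). Itaconate is made by the enzyme that Irg1 (Acod1) encodes, and the deleted stretch of the gene is not given in the labels. No label ties replicates to separate mice or cultures, so the p-values measure the spread between these libraries, which may be technical.

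Macrophages sense LPS through Toll-like receptor 4, whose adaptor TRIF leads to the phosphorylation of IRF3 and to production of interferon-β. Interferon-β acts back on the same cells through a receptor made of IFNAR1 and IFNAR2. The receptor's kinases TYK2 and JAK1 activate STAT2 and a partner STAT protein, which join IRF9 in the complex ISGF3. ISGF3 binds the interferon-stimulated response element (ISRE) and switches on antiviral genes, among them Irf7, which widens the range of interferons a cell can make. IRF1 and IRF8 act more through interferon-γ, whose STAT dimer binds the gamma-activated site (GAS).

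Those elements can be seen before the starts of some of the 9 genes. RefSeq sequences from 250 bases before to 50 bases after a gene start (build GRCm38.p6, the same assembly as mm10) were found for all 9 genes, in 12 windows. Each was searched on both strands for an ISRE core (GAAA, any 2 bases, GAAA), a GAS (TTC, any 3 bases, GAA) and an NF-κB type site (GGGA, any 4 bases, CC). The ISRE core occurred in 3.44% of all 32851 windows (3.99% of 27025 genes) and, among the 9 genes, before Stat2 alone. The GAS occurred in 8.3% of all windows (9.55% of genes) and in those of Ifnar1, Ifnar2, Irf1 and Irf8. The NF-κB type site occurred in 20.7% of all windows (22.9% of genes) and in those of Irf1 and Irf8. Stretches of 50 bases are shown for Stat2 and Irf1, whose levels varied most between libraries, and for Irf8, which has a pair of GAS matches. Capitals mark the matches and each sequence reads 5′ to 3′ on the plus strand, which is the strand of these 3 genes.
Stat2, ISRE core on the opposite strand, chr10:128270256-128270305: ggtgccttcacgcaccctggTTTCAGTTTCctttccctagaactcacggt
Irf1, GAS, chr11:53769904-53769953: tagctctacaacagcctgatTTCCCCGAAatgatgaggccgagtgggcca
Irf1, NF-κB type site on the opposite strand, chr11:53769964-53770013: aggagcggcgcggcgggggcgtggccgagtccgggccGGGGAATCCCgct
Irf8, GAS pair, chr8:120736167-120736216: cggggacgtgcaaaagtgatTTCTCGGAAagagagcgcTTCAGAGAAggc
A match in these letters is not evidence of binding, and the absence of one says only that the letters are not in the window.

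Gene reads per library ranged from 7361671 to 20430359. Irg1 reads went against the labels of 4 libraries: KO + itaconate replicate 3 and KO replicate 3 held 60716 and 44920, whereas WT replicates 1 and 2 held 94 and 117. The other Irg1 counts were 94 and 8 in KO + itaconate replicates 1 and 2, 154 and 170 in KO replicates 1 and 2, and 31169 in WT replicate 3. Groups keep their labels here, so each direction given between them is subject to that mismatch. KO + itaconate replicate 3 also stood apart: its level was above the other 8 libraries in 19.8% of tested genes and below them in 26.0%. The mitochondrial share of gene reads was 0.709% there, against 1.27% to 2.57% elsewhere. Summed macrophage markers (8 genes, in CPM, the gene's reads over all gene reads of the library put on a common total, with no further scaling) ran from 3350 to 7285 in KO + itaconate, 6671 to 7449 in KO and 7591 to 10160 in WT, and their median log2 fold change was -0.24 for KO + itaconate against KO, -0.61 for KO + itaconate against WT and -0.36 for KO against WT. The part of these shifts in the results below was not tested. Summed lymphoid markers (7 genes) stayed at or under 1.74 CPM in all 9 libraries, with Cd3e, Cd79a and Ncr1 at 0 reads. Summed dendritic cell markers (6 genes) stayed at or under 2.04 CPM. Summed granulocyte markers (7 genes, mostly S100a8 and S100a9) ran from 71.9 to 215 CPM in KO + itaconate, 161 to 211 in KO and 243 to 249 in WT, and stromal and erythroid markers (6 genes) from 167 to 262, 195 to 220 and 193 to 273 CPM in the same order. The erythroid genes among them, Hba-a1 and Hbb-bs, held at most 5 and 2 reads in any library.

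None of the 9 genes passed the threshold of an adjusted p of 0.05 in any of the 3 comparisons (edgeR quasi-likelihood test, Benjamini-Hochberg adjustment over 10781 genes). The background share of called genes was 0.0% in each comparison. At an unadjusted p under 0.05 there were 1 of the 9 (Stat2) for KO + itaconate against KO, 2 (Stat2 and Ifnar1) for KO + itaconate against WT, and 0 for KO against WT. Of all tested genes, 8.3% did so for KO + itaconate against KO (4.19% higher, 4.11% lower), 8.88% for KO + itaconate against WT (5.32% higher, 3.55% lower) and 3.13% for KO against WT (2.45% higher, 0.677% lower), which is 895, 957 and 337 genes. DESeq2 called 12, 14 and 1 genes in these comparisons and 0 of the 9 in each. For KO + itaconate against WT it gave no adjusted p for Irf1, Irf3, Irf5 and Irf9, which could not be called there. The comparisons share libraries and are not independent of each other. Bulk libraries cannot tell fewer cells of a kind from less RNA per cell. Levels in the plot by library and in the text are CPM scaled by trimmed mean of M-values (TMM).

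**Figure D1:**
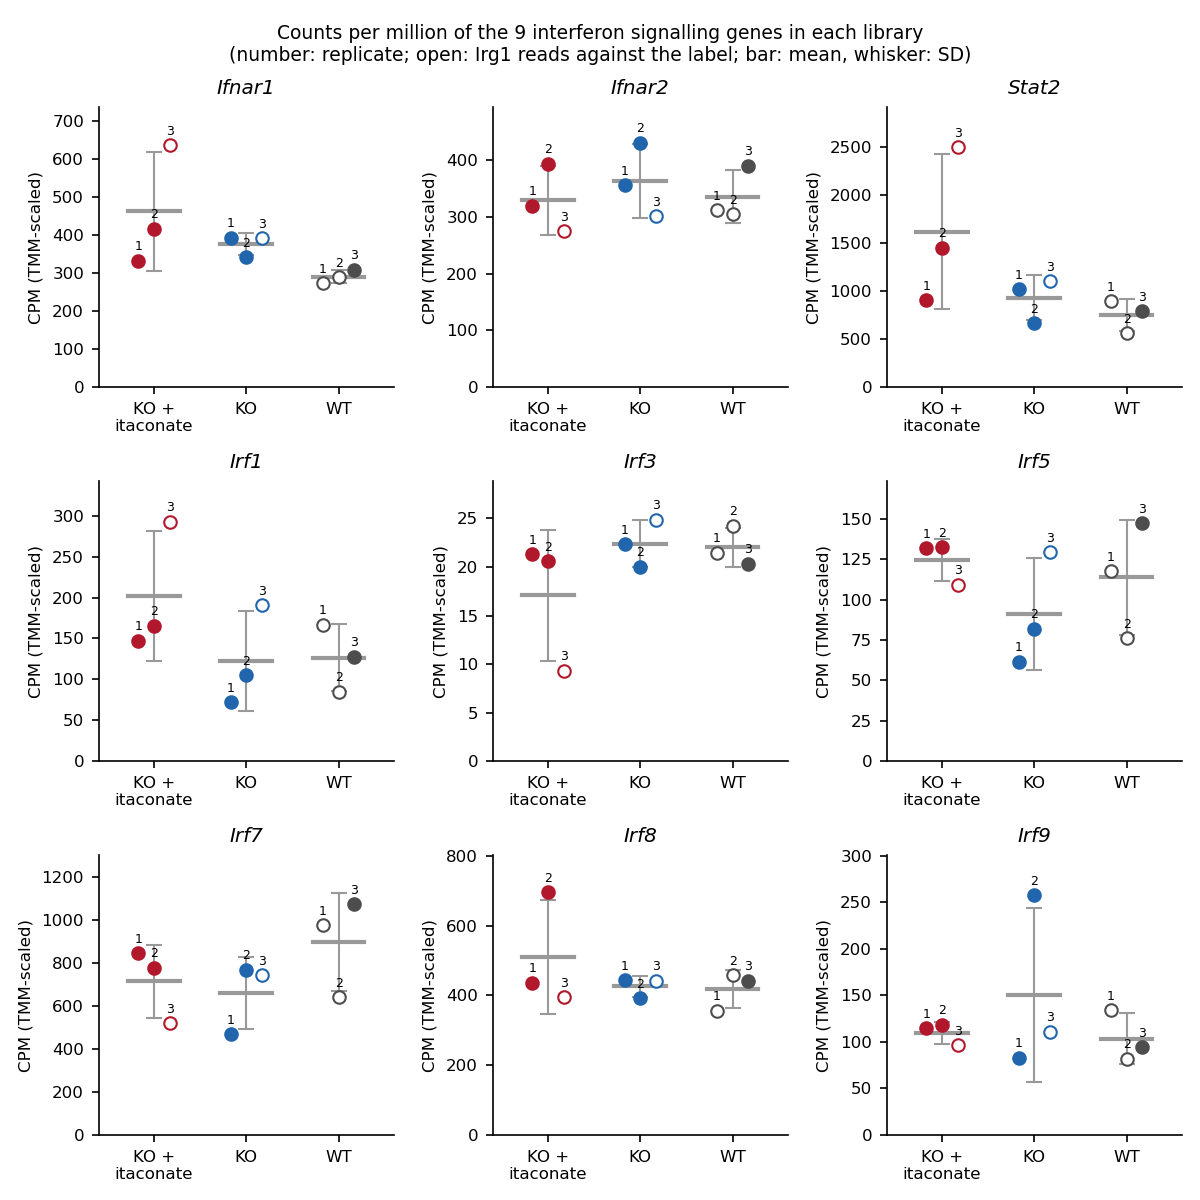
Levels in CPM (TMM-scaled, linear axes from 0) of the 9 genes in each library, by labelled group. Points are libraries with their replicate number, open where Irg1 reads go against the label, bars are means and whiskers SD (n = 3). For Stat2, KO + itaconate replicate 3 lies at 2492 CPM, above the other 8 libraries, and for Irf9 KO replicate 2 lies at 257 CPM.

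The receptor chains differed in how steady they were. Ifnar1 (ENSMUSG00000022967.12, chromosome 16, 91485238 to 91507441, plus strand, mm10) encodes the chain that carries TYK2. It was measured at 333, 417 and 637 CPM in KO + itaconate replicates 1 to 3, 394, 342 and 392 CPM in KO, and 274, 289 and 308 CPM in WT. All libraries labelled KO + itaconate and all labelled KO lay above all labelled WT, a pattern that 7.3% and 4.85% of tested genes shared. The KO + itaconate and KO ranges overlapped.

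The means of Ifnar1 were 462 ± 157 CPM in KO + itaconate, 376 ± 29.4 CPM in KO and 290.3 ± 17.3 CPM in WT (SD, n = 3 each). The log2 fold change of KO + itaconate against WT was 0.67 ± 0.28 (SE; 95% interval 0.07 to 1.27, edgeR adjusted p = 0.545). KO against WT gave 0.37 ± 0.28 (interval -0.22 to 0.97, adjusted p = 0.995). KO + itaconate against KO gave 0.30 ± 0.28 (interval -0.30 to 0.89, adjusted p = 0.802). Without KO + itaconate replicate 3 the first and last of these became 0.38 and 0.00092. Leaving out the 4 libraries whose Irg1 reads contradict the label gave 0.27 and 0.0070. KO against WT was 0.27 without the 4. Within pool 1, the sequencing pool as the description labels are read here, KO replicates 1 and 2 exceeded the 3 WT libraries by 0.34 in mean log2 CPM. Pool 2 holds KO + itaconate replicate 1 and KO replicate 3, the latter 1 of the 4 libraries against their label. There KO + itaconate minus KO was -0.24, against the direction over all libraries. With the pool as a term KO + itaconate against WT was 0.11, and no pool holds both of these groups. Once the 4 libraries are left out, WT is replicate 3 alone, KO lies in pool 1 and KO + itaconate in pools 2 and 3. Pool and treatment then cannot be told apart, and each value against WT rests on WT replicate 3 alone, here and for every gene below.

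Ifnar2 (ENSMUSG00000022971.18, chromosome 16, 91372783 to 91405589, plus strand) encodes the chain that binds interferon first and carries JAK1. Its levels were 320.0, 394 and 274 CPM in KO + itaconate, 356, 431 and 302 CPM in KO, and 312, 305 and 390.2 CPM in WT. The 3 groups overlapped throughout. It was the steadiest of the 9: the highest library exceeded the lowest 1.57-fold, and 4.44% of tested genes had a smaller SD of log2 CPM over the 9 libraries. The log2 fold changes were -0.14 ± 0.27, -0.03 ± 0.27 and 0.11 ± 0.27 (SE) for KO + itaconate against KO, KO + itaconate against WT and KO against WT. Their 95% intervals ran from -0.71 to 0.43, -0.60 to 0.54 and -0.46 to 0.68 (adjusted p = 0.914, 0.983 and 0.995, edgeR).

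The ratio of Ifnar1 to Ifnar2 reads within a library does not depend on scaling between libraries. It was 1.04, 1.06 and 2.32 in KO + itaconate, 1.10, 0.794 and 1.30 in KO, and 0.878, 0.945 and 0.790 in WT. The KO + itaconate libraries all lay above the WT libraries, and the KO libraries spanned both. How many other gene pairs share that pattern was not tested. Replicate 3 of KO + itaconate combined the highest Ifnar1 and the lowest Ifnar2 of the 9 libraries.

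**Figure D2:**
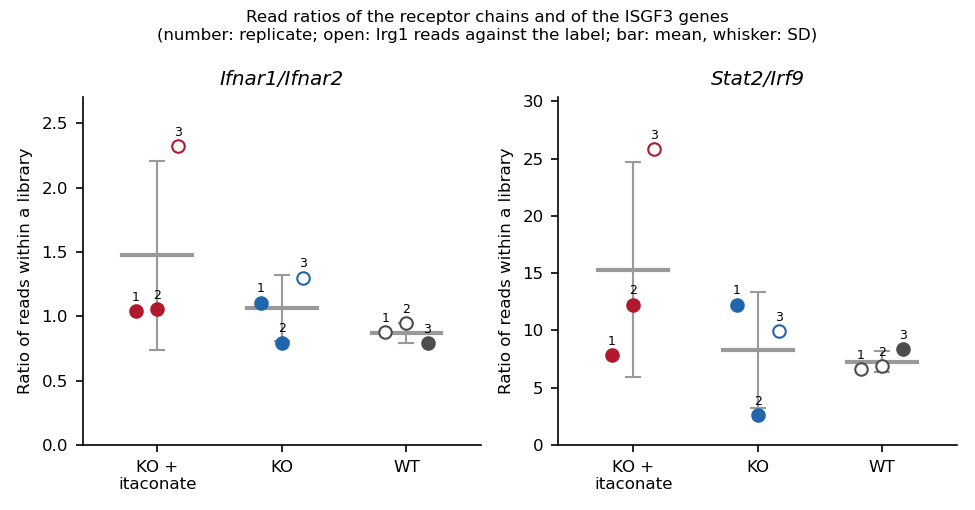
Ratio of reads within each library for Ifnar1 over Ifnar2 and Stat2 over Irf9 (linear axes from 0), by labelled group. Points are libraries with their replicate number, open where Irg1 reads go against the label, bars are means and whiskers SD (n = 3). KO + itaconate replicate 3 has the highest value of both ratios, 2.32 and 25.8, and KO replicate 2 the lowest Stat2 over Irf9, 2.58.

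Stat2, the ISGF3 subunit that supplies its activation domain, showed the widest range of the 9 genes. Stat2 (ENSMUSG00000040033.15, chromosome 10, 128270559 to 128292849, plus strand) was measured at 903, 1449.6 and 2492 CPM in KO + itaconate replicates 1 to 3. The values were 1018, 664 and 1102 CPM in KO, and 892, 562 and 789 CPM in WT. Each KO + itaconate library exceeded each WT library, by a small margin for replicate 1, a pattern that 7.3% of tested genes shared. The KO + itaconate and KO ranges overlapped, as did KO and WT.

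Means of Stat2 were 1615 ± 807 CPM in KO + itaconate, 928 ± 233 CPM in KO and 748 ± 169 CPM in WT (SD, n = 3 each). KO + itaconate against WT gave a log2 fold change of 1.11 ± 0.36 (SE; 95% interval 0.34 to 1.88, edgeR adjusted p = 0.515, range 0.0894 to 1.0 over the other settings). KO + itaconate against KO gave 0.80 ± 0.36 (interval 0.04 to 1.56, adjusted p = 0.595). KO against WT gave 0.31 ± 0.36 (interval -0.45 to 1.07, adjusted p = 0.995). Without KO + itaconate replicate 3 they were 0.67, 0.35 and 0.32, and without the 4 libraries 0.57, 0.46 and 0.10. In pool 2, KO + itaconate replicate 1 minus KO replicate 3, which is among those 4, was -0.29 in log2 CPM. With the pool as a term KO + itaconate against WT also turned negative, at -0.12.

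Irf9, the DNA-binding subunit of ISGF3, did not follow Stat2. Irf9 (ENSMUSG00000002325.14, chromosome 14, 55603571 to 55610030, plus strand) was measured at 115, 118 and 96.6 CPM in KO + itaconate, 83.1, 257 and 111 CPM in KO, and 134, 82.0 and 94.4 CPM in WT. KO replicate 2 was the highest of all libraries, and the other 8 lay between 82.0 and 134 CPM. On the log2 scale the changes were -0.45 ± 0.38 for KO + itaconate against KO, 0.09 ± 0.38 for KO + itaconate against WT and 0.54 ± 0.38 for KO against WT (SE; adjusted p = 0.778, 0.957 and 0.995, edgeR). Without KO replicate 2 the first became 0.18 and the last -0.09. Reads of Stat2 per read of Irf9 were 7.86, 12.2 and 25.8 in KO + itaconate, 12.3, 2.58 and 9.94 in KO, and 6.64, 6.85 and 8.36 in WT. The ratio stayed close among WT libraries and spread widely among KO + itaconate and KO libraries, and the groups overlapped. Irf9 shares 123 exon bases with Rnf31 on the same strand, so some reads could belong to either.

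Of the factors that switch on interferon genes, Irf3 and Irf7, Irf3 had 1 library far below the others. Irf3 (ENSMUSG00000003184.14, chromosome 7, 44997648 to 45002848, plus strand) is made constitutively and acts once phosphorylated. It was measured at 21.3, 20.6 and 9.30 CPM in KO + itaconate, 22.4, 20.0 and 24.9 CPM in KO, and 21.5, 24.3 and 20.3 CPM in WT. Apart from KO + itaconate replicate 3, at 88 reads, the libraries lay between 20.0 and 24.9 CPM. Fold changes on the log2 scale were -0.39 ± 0.32, -0.37 ± 0.32 and 0.02 ± 0.32 (SE) for KO + itaconate against KO, KO + itaconate against WT and KO against WT (adjusted p = 0.770, 0.737 and 0.998, edgeR). Without KO + itaconate replicate 3 the first was -0.09 and the second -0.06.

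Irf7 (ENSMUSG00000025498.14, chromosome 7, 141262706 to 141266481, minus strand) is itself induced by interferon. Its levels were 845, 779 and 521 CPM in KO + itaconate, 469.5, 770.0 and 744 CPM in KO, and 978, 642 and 1075 CPM in WT. The groups overlapped, with 2 of the 3 WT libraries above all libraries of the other groups. The log2 fold changes were 0.11 ± 0.31 for KO + itaconate against KO, -0.33 ± 0.31 for KO + itaconate against WT and -0.44 ± 0.31 for KO against WT (SE). The 95% intervals ran from -0.54 to 0.77, -0.99 to 0.33 and -1.10 to 0.22 (adjusted p = 0.947, 0.759 and 0.995, edgeR). KO against WT was -0.25 without KO replicate 1 and -0.78 without the 4 libraries, where WT replicate 3 is the 1 library left with its label and the other groups supply the spread.

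Irf1, a short-lived activator induced by interferon-γ and NF-κB signals, varied 4.06-fold between libraries. Irf1 (ENSMUSG00000018899.16, chromosome 11, 53770014 to 53778374, plus strand) was measured at 147, 166 and 293 CPM in KO + itaconate, 72.2, 105 and 191 CPM in KO, and 167, 84.6 and 128 CPM in WT. The 3 groups overlapped, KO + itaconate replicate 3 being the highest library and KO replicate 1 the lowest. KO + itaconate against KO gave a log2 fold change of 0.72 ± 0.39 (SE; 95% interval -0.11 to 1.55, adjusted p = 0.639, edgeR). That value was 0.36 without KO + itaconate replicate 3 and 1.20 without KO replicate 3. KO + itaconate against WT gave 0.68 ± 0.39 (adjusted p = 0.621), or 0.32 without KO + itaconate replicate 3, and KO against WT -0.04 ± 0.39 (adjusted p = 0.998). The last was -0.50 without KO replicate 3 and 0.23 without KO replicate 1. The pool as a term turned both KO + itaconate comparisons negative, to -0.37 against KO and -0.88 against WT.

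Irf5, which acts downstream of MyD88 on inflammatory cytokine genes, had its tightest values in KO + itaconate. Irf5 (ENSMUSG00000029771.12, chromosome 6, 29526625 to 29541871, plus strand) was measured at 132, 132 and 109 CPM there, 61.4, 82.0 and 129 CPM in KO, and 118, 76.2 and 147 CPM in WT. The groups overlapped. The log2 fold changes were 0.45 ± 0.33, 0.13 ± 0.33 and -0.32 ± 0.33 (SE) for KO + itaconate against KO, KO + itaconate against WT and KO against WT (adjusted p = 0.733, 0.920 and 0.995, edgeR). Without the 4 libraries they were 0.86, -0.16 and -1.03, both values against WT resting on WT replicate 3 alone. KO + itaconate against KO was 0.24 without KO replicate 1 and 0.81 without KO replicate 3. KO against WT was -0.65 without KO replicate 3 and -0.09 without WT replicate 3. With the pool as a term KO + itaconate against WT was -0.64. Irf5 shares 411 exon bases with Tnpo3 on the opposite strand, and the strand setting of the counter is not given in the sources used here, so reads of the pair cannot be fully told apart.

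Irf8, a partner of PU.1 in macrophage and dendritic cell development, was among the steadier genes. Irf8 (ENSMUSG00000041515.9, chromosome 8, 120736358 to 120756694, plus strand) was measured at 436, 696 and 394 CPM in KO + itaconate, 444, 392 and 442 CPM in KO, and 357, 459 and 442 CPM in WT. KO + itaconate replicate 2 was highest, and the other 8 libraries lay between 357 and 459 CPM. The log2 fold changes were 0.26 ± 0.28, 0.28 ± 0.28 and 0.02 ± 0.28 (SE) for KO + itaconate against KO, KO + itaconate against WT and KO against WT (adjusted p = 0.834, 0.773 and 0.998, edgeR). Without KO + itaconate replicate 2 the first became -0.02 and the second 0.01.

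**Figure D3:**
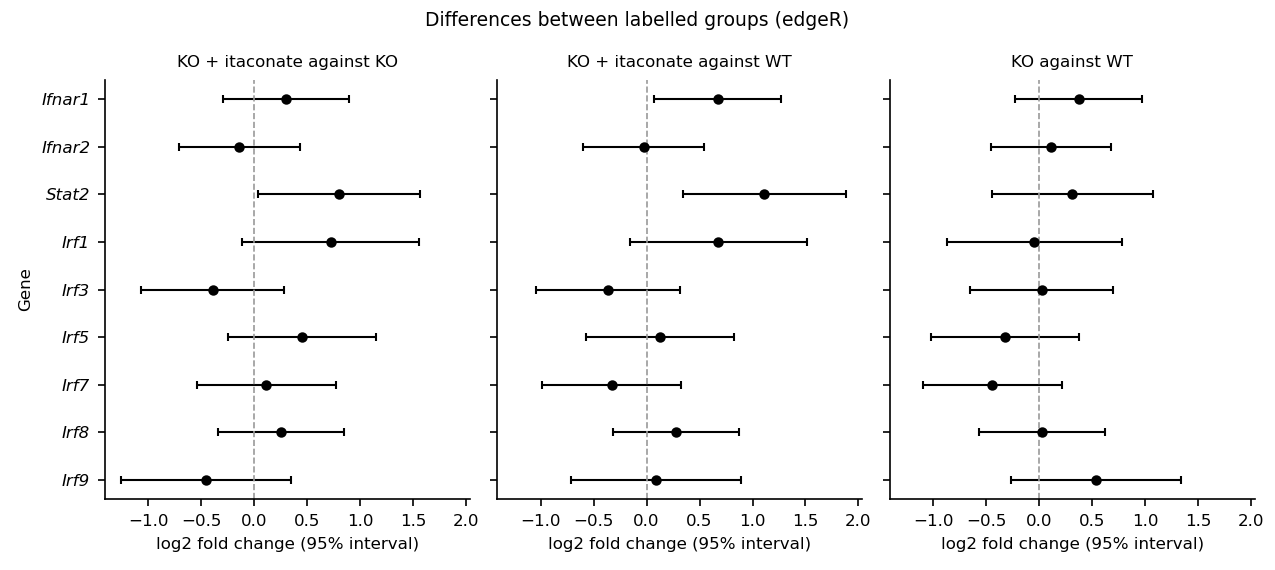
Log2 fold changes of the 9 genes in the 3 comparisons between labelled groups, with 95% intervals from edgeR (9 libraries in 1 fit). The intervals of Stat2 in both KO + itaconate comparisons and of Ifnar1 in KO + itaconate against WT lie above 0, before adjustment over all genes, and the others include 0.

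For KO against WT the 9 intervals reached down to -1.10 (Irf7) and up to 1.34 (Irf9). Of the 9 genes, 6 had a log2 fold change above 0 in each comparison, where 48.4%, 49.1% and 48.9% of all tested genes did for KO + itaconate against KO, KO + itaconate against WT and KO against WT. The median of the 9 was 0.26, 0.13 and 0.02, beside -0.02, -0.01 and -0.01 for all tested genes. KO + itaconate replicate 3 was the highest library for Ifnar1, Stat2 and Irf1 and the lowest for Ifnar2 and Irf3. Of all tested genes, 19.8% were highest and 26% lowest in that library.

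The rest of the pathway was described by lists. No gene of any list passed the threshold in the main edgeR fit, with all 9 libraries and the low-count filter. Ifnb1, which encodes interferon-β, stayed below the filter with 17, 6 and 22 reads in KO + itaconate, 0, 4 and 6 in KO, and 1, 0 and 2 in WT. Replicates 1 and 3 of KO + itaconate held more Ifnb1 reads than the other 7 libraries. The 3 reads that bound a count of 0 correspond to 0.147 to 0.408 CPM across libraries. The other 7 interferon genes looked up (Ifna1, Ifna2, Ifna4, Ifna5, Ifng, Ifnl2 and Ifnl3) had 0 reads in all 9 libraries. Irf4 had 28 reads over all libraries.

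Among receptors and kinases outside the 9 (6 tested), medians were -0.02, 0.18 and 0.10 for KO + itaconate against KO, KO + itaconate against WT and KO against WT. Jak1, the kinase on IFNAR2, was measured at 473, 652 and 841 CPM in KO + itaconate, 718, 466 and 618 CPM in KO, and 483, 507 and 484 CPM in WT. Tyk2, the kinase on IFNAR1, was measured at 23.6, 15.6 and 6.55 CPM in KO + itaconate, 11.3, 14.4 and 17.5 CPM in KO, and 16.2, 15.3 and 29.3 CPM in WT. KO + itaconate replicate 3 was thus the highest library for Jak1 and the lowest for Tyk2, the reverse of the receptor chains that carry them. That library was the highest for 19.8% and the lowest for 26% of all tested genes. Their log2 fold changes for KO + itaconate against KO were 0.12 ± 0.28 for Jak1 and 0.09 ± 0.41 for Tyk2 (SE; adjusted p = 0.935 and 0.971, edgeR). Ifngr2, the signalling chain of the interferon-γ receptor, ranged 6.78-fold, with 531 CPM in KO replicate 1 as the highest library and 78.3 CPM in WT replicate 2 as the lowest. Its log2 fold change was 1.33 ± 0.61 for KO + itaconate against WT and 1.46 ± 0.62 for KO against WT, or 0.44 without KO + itaconate replicate 3 and 0.49 without KO replicate 1. Ifngr1, the ligand-binding chain, gave 0.89 ± 0.35 for KO against WT, with KO replicate 2 at 264 CPM and the other 8 libraries at 71.2 to 112 CPM, and 0.31 without that library. Jak2, which serves that receptor, gave -0.46 ± 0.30 for KO + itaconate against KO and -0.58 ± 0.30 for KO + itaconate against WT.

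The 6 other STAT genes had medians of 0.02, -0.12 and -0.07 in the same order of comparisons. Stat3, which transmits interleukin-6 and interleukin-10 signals, was measured at 370.4, 513 and 429 CPM in KO + itaconate and 336, 319.8 and 337 CPM in KO. Those groups did not overlap, which was so for 5.61% of tested genes in that direction, and the log2 fold change was 0.40 ± 0.25. Stat6, which transmits interleukin-4 signals, was measured at 117, 178 and 175 CPM in KO and 193, 196 and 183 CPM in WT. These groups did not overlap (lower in 5.76% of tested genes), and KO against WT gave -0.29 ± 0.31. Stat5b gave -0.67 ± 0.41 for KO + itaconate against WT and -0.19 ± 0.40 for KO against WT. The adjusted p-values (edgeR) were 0.691, 0.995, 0.640 and 0.995.

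Of the 9 further IRF genes and partners looked up, 7 were tested, with medians of -0.06, 0.05 and 0.11. Irf2bp2, a corepressor first described as a partner of IRF2, differed more than any of the 9 genes in both comparisons of KO + itaconate. It was measured at 575, 805 and 1282 CPM in KO + itaconate, 252, 242 and 498 CPM in KO, and 323, 229.6 and 363 CPM in WT. Every KO + itaconate library lay above every KO and WT library, which was so for 5.61% and 7.3% of tested genes. Its log2 fold changes were 1.42 ± 0.37 against KO and 1.54 ± 0.37 against WT (SE; edgeR adjusted p = 0.507 and 0.492). With no low-count filter edgeR called both (adjusted p = 0.0262 and 0.0106), and DESeq2 called the second (adjusted p = 0.00816). Without the 4 libraries the first was 1.46, where pool and treatment cannot be told apart. Over all alternatives the adjusted p of both ran up to 1.0, and with the pool as a term the value against WT turned to -0.095. Irf2bpl, a related gene, gave 0.55 ± 0.28 and 0.63 ± 0.28 in those comparisons. Irf2, an antagonist of IRF1 at shared sites, gave 0.59 ± 0.31 for KO against WT, and Spi1, which encodes PU.1, -0.21 ± 0.28.

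The 11 genes that lead from receptors to IRF3 and IRF7 activation had medians of -0.26, -0.22 and 0.12, with 2, 4 and 6 members above 0. Myd88, the adaptor of most Toll-like receptors, gave -0.78 ± 0.34 for KO + itaconate against KO, where KO replicate 2 was highest at 167 CPM. Traf6, a ubiquitin ligase below MyD88, gave 0.64 ± 0.37 there. Ikbke, a kinase of IRF3 and IRF7, gave -0.56 ± 0.28 for KO + itaconate against WT, and Irak1 0.62 ± 0.29. For KO against WT, Ticam2, the adaptor that links Toll-like receptor 4 to TRIF, gave 0.42 ± 0.30, and Traf6 -0.45 ± 0.37. The adjusted p-values of these 6 values lay between 0.561 and 0.995 (edgeR).

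The 12 negative regulators had medians of -0.02, 0.07 and 0.05. Socs3, a feedback inhibitor of JAK kinases, was measured at 149, 113 and 80.2 CPM in KO + itaconate and 173, 269.9 and 171 CPM in KO, which did not overlap (lower in 5.29% of tested genes), a log2 fold change of -0.84 ± 0.33 (adjusted p = 0.529, edgeR). The Pias genes, whose proteins attach SUMO to STATs and other factors, gave 4 of the named values. Pias3 gave 0.69 ± 0.29 for KO + itaconate against KO, and Pias1 and Pias4 gave 0.73 ± 0.28 and 0.72 ± 0.29 for KO + itaconate against WT. For KO against WT, Pias1 gave 0.61 ± 0.28 and Ptpn2, a phosphatase of JAK1, 0.71 ± 0.41. None passed (adjusted p = 0.567, 0.538, 0.542, 0.995 and 0.995, edgeR).

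Downstream, the 25 ISRE target genes had medians of 0.00, -0.03 and -0.19, with 13, 10 and 9 members above 0. Isg15, a ubiquitin-like modifier, and Bst2, which tethers budding viruses, gave 1.15 ± 0.43 and 0.88 ± 0.31 for KO + itaconate against KO (adjusted p = 0.523 and 0.515, edgeR). Isg15 was measured at 134, 222 and 183 CPM in KO + itaconate, 41.8, 60.2 and 141 CPM in KO, and 117, 65.9 and 154 CPM in WT. Its value for KO + itaconate against KO was 1.78 without the 4 libraries, where pool and treatment cannot be told apart. The pool as a term turned that value to -0.068. Bst2 and Oas1a gave 0.59 ± 0.31 and -0.69 ± 0.38 for KO + itaconate against WT, and Xaf1 and Oasl1 1.12 ± 0.38 and -0.66 ± 0.41 for KO against WT. Of 16 GAS and IRF1 target genes, 15 were tested, with medians of -0.11, -0.03 and 0.09. Cxcl9, an interferon-γ-induced chemokine, lay at 97.4, 119 and 126 CPM in KO + itaconate, 447, 292 and 181 CPM in KO, and 203, 113 and 201 CPM in WT. Its log2 fold change of -1.43 ± 0.35 for KO + itaconate against KO was not called in the filtered fit of all 9 libraries (adjusted p = 0.507, edgeR). With no low-count filter its edgeR adjusted p was 0.0162, and no other setting with all 9 libraries called it. Leaving out 1 library each gave -1.68 to -1.05, none of them called. The 5 libraries that match their Irg1 labels gave -1.79, where pool and treatment cannot be told apart. Nos2, the inducible nitric oxide synthase, gave -0.99 ± 0.42 for KO + itaconate against KO and 0.73 ± 0.41 for KO against WT, and Icam1, an adhesion molecule, gave -0.91 ± 0.38 for KO + itaconate against WT.

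**Figure D4:**
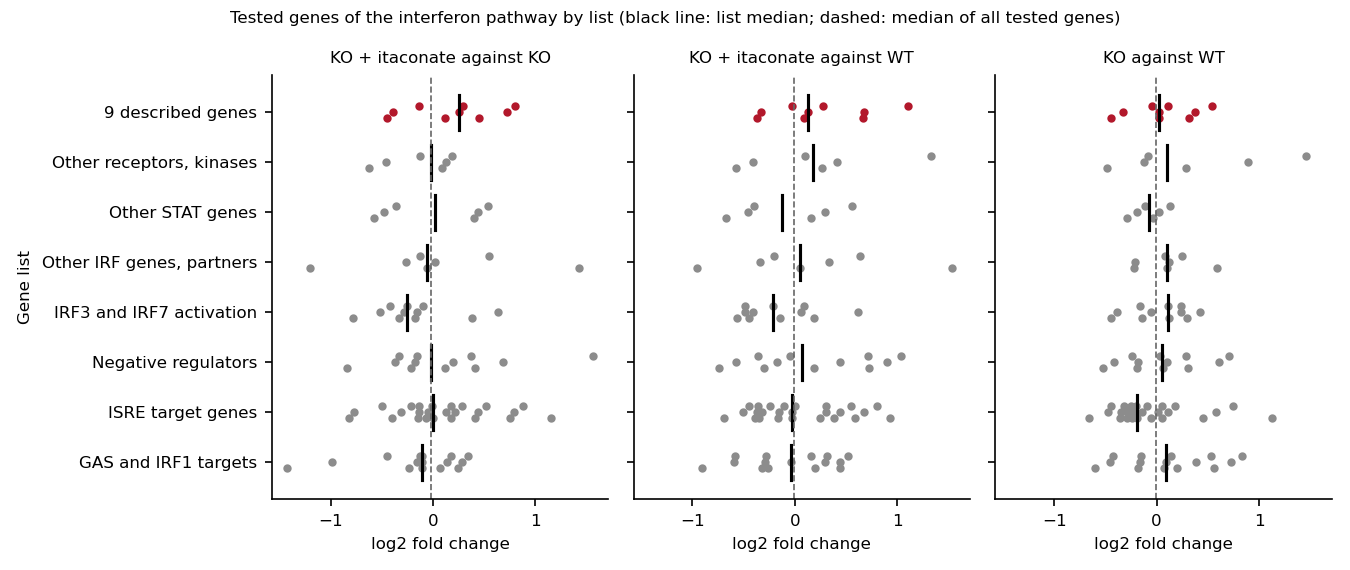
Log2 fold change of each tested gene by list in the 3 comparisons between labelled groups. Points are genes (the 9 described genes in red), black lines list medians and the dashed line the median of all tested genes. The 9 genes have a median of 0.26 for KO + itaconate against KO, where the ISRE target genes have 0.00 and the IRF3 and IRF7 activation genes -0.26.

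Stat2 and Irf1, the 2 genes with the largest SD of log2 CPM over the 9 libraries (0.637 and 0.621, where the median tested gene had 0.458), were set beside 7287 other genes of at least 10 CPM on average. Likeness was the root mean square difference of log2 CPM after centring each gene on its mean. Closest to Stat2 were Plin3 (0.159), Ms4a6c (0.190), Pcgf5 (0.190), Numb (0.193) and Zbtb7a (0.196). Plin3 coats lipid droplets, and its levels were 189.9, 257 and 434 CPM in KO + itaconate, 196, 141 and 229 CPM in KO, and 139.8, 127 and 159 CPM in WT. Closest to Irf1 were Pgrmc1 (0.178), Ifrd1 (0.179), Rhob (0.188), Tlr3 (0.192) and Donson (0.198). Tlr3, a receptor for double-stranded RNA, was measured at 23.2, 27.4 and 43.2 CPM in KO + itaconate, 10.4, 16.8 and 19.6 CPM in KO, and 25.7, 13.1 and 18.3 CPM in WT. Without KO + itaconate replicate 3 these genes ranked between 3 and 16 for Stat2 and between 3 and 23 for Irf1.

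**Figure D5:**
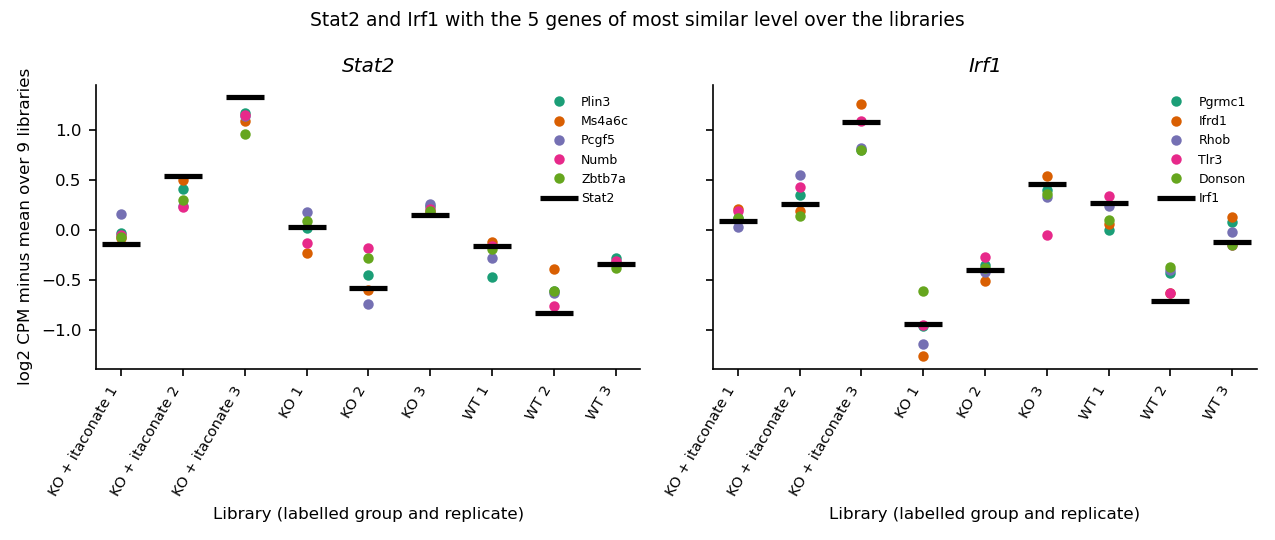
Log2 CPM minus its mean over the 9 libraries for Stat2 and Irf1 (black bars) and for the 5 genes closest to each (coloured points), by labelled group and replicate. KO + itaconate replicate 3 is highest for both and for all 10 similar genes, and KO replicate 1 is lowest for Irf1. The similar genes were picked by their levels in these same libraries. KO + itaconate replicate 3 is the highest library for 19.8% of tested genes.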

How the data were processed

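For the 9 libraries the authors deposited raw counts of reads by gene in 1 table, with 5 summary lines of the counter that stayed out of library sizes and tests. STAR, HTSeq and the build mm10 are named in the submitters' processing notes. Versions, annotation release and filters are not given in the sources used here. Per the labels' protocols, messenger RNA was copied with barcoded oligo-dT primers, pooled and amplified for strand-specific sequencing, so reads lie mostly near 3′ ends and levels are not compared between genes. No molecular identifier is mentioned, so read copies count separately. Of a library's reads, 23.1% to 33.7% fell outside annotated genes, 17.1% to 20.0% aligned more than once and 0.275% to 0.441% were ambiguous.

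Symbols were assigned to 21745 of 22165 identifiers through a name table, and positions come from GENCODE M21, on the same assembly as mm10. Counts were tested with edgeR 4.0.16 in R 4.3.3 (quasi-likelihood F test, two-sided, group as the only term, TMM scaling, filter by expression at a minimum count of 10, 10781 genes), for 3 comparisons. SE was taken as the size of the log2 fold change divided by the square root of F. The test was checked on simulated data. DESeq2 was version 1.42.0. Alternatives numbered 16, of which 9 left out 1 library each. The description labels carry a number read here as the pool: WT and KO replicates 1 and 2 with WT replicate 3 in pool 1, KO replicate 3 and KO + itaconate replicate 1 in pool 2, KO + itaconate replicates 2 and 3 in pools 3 and 4.

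The 9 genes and the lists were chosen with earlier results of these data known. Other genes were named by rule: the 2 tested genes of each list with the smallest p in each comparison, the 5 genes closest in level to each of Stat2 and Irf1, and Ifnb1, Tyk2, Jak1 and Irg1. A gene of the STAT list that the rule selects is not reported here. Irf1, Irf3 and Irf7 share 135, 88 and 45 exon bases with genes on the opposite strand. Ifnar2 shares 315 exon bases with Gm21970 on the same strand, a gene with 0 reads in every library. Counting intervals and limits cover counting error only.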

Additional observations from a re-analysis of the deposited data

How the results depend on the processing

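No alternative brought any of the 9 genes past the threshold, although 3 libraries per group left 95% intervals of about 1 log2 unit or more in width. Irf1, Irf3, Irf5 and Irf9 had no DESeq2 adjusted p for KO + itaconate against WT, so DESeq2 could not call them there. Counts of called genes over the whole table were 0 in the main edgeR fit, with all 9 libraries and the low-count filter, for each comparison. Without a filter on low counts they were 80 for KO + itaconate against KO and 92 for KO + itaconate against WT. DESeq2 called 12, 14 and, for KO against WT, 1. With the 4 libraries whose Irg1 reads contradict the label left out, they were 226, 1 and 2. Leaving out 1 library each gave 0 to 5 and 0 to 4 for the KO + itaconate comparisons, the highest without KO + itaconate replicate 1. Scaling by total gene reads alone shifted the median of all tested genes to -0.11 for KO + itaconate against WT. Same-numbered replicates did not deviate together (correlations from -0.16 to 0.24, 3 of 9 pairs over 0.1, and not every library closest to its own number), and the replicate block called 0 genes in each comparison.

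Log2 fold changes that changed sign, none of them called, are given by setting, and the cause was not tested. Of the 2 libraries of pool 2, KO replicate 3 holds Irg1 reads against its label. With the pool as a term, where KO + itaconate against KO rests on the 2 libraries of pool 2 and no pool holds both KO + itaconate and WT, KO + itaconate against KO gave Ifnar1 -0.24, Ifnar2 0.085, Irf1 -0.37, Irf8 -0.018, Irf9 0.051, Stat2 -0.29, Ifngr1 0.030, Irf2bpl -0.031, Isg15 -0.068, Jak1 -0.39 and Jak2 0.10. With that term KO + itaconate against WT gave Ifnar2 0.31, Irf1 -0.88, Irf5 -0.64, Irf8 -0.022, Stat2 -0.12, Bst2 -0.17, Cxcl9 0.21, Irak1 -0.28, Irf2bp2 -0.095, Irf2bpl -0.064, Jak1 -0.12, Jak2 0.13 and Pias4 -0.16, and KO against WT gave Irf3 -0.056 and Irf8 -0.0041. Under total gene reads Irf9 was -0.0058 for KO + itaconate against WT, and Irf3 and Irf8 were -0.00082 and -0.00097 for KO against WT. Without the 4 libraries Jak1 was -0.093 for KO + itaconate against KO. Irf3, Irf5, Oas1a and Stat5b were 0.041, -0.16, 0.061 and 0.12 for KO + itaconate against WT, and Irf8, Nos2, Spi1 and Stat5b were -0.068, -0.21, 0.12 and 0.21 for KO against WT.

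Leaving out 1 library each, the values for KO + itaconate against KO ran from -0.27 to 0.0018 for Ifnar2, -0.082 to 0.30 for Irf7, -0.018 to 0.42 for Irf8, -0.74 to 0.18 for Irf9, -0.090 to 0.31 for Jak1 and -0.38 to 0.46 for Tyk2. For KO + itaconate against WT they ran from -0.15 to 0.10 for Ifnar2, -0.091 to 0.36 for Irf5 and -0.056 to 0.32 for Irf9. For KO against WT they ran from -0.029 to 0.24 for Ifnar2, -0.50 to 0.23 for Irf1, -0.046 to 0.10 for Irf3, -0.080 to 0.093 for Irf8, -0.095 to 0.83 for Irf9, -0.35 to 0.082 for Spi1 and -0.36 to 0.10 for Stat5b.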
